A study of Homo sapiens with 18 samples.

Results

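Described here are 9 genes for surface antigens and coreceptors of B cells: CD22, MS4A1 (CD20), CD72, CR2 (CD21), FCER2 (CD23), CD53, CD37, CD24 and CD180. They were chosen by name, and each is represented by the single array probe set annotated to its symbol alone. They are 9 of the 18417 genes that could be named on the array. Their levels were followed across 6 groups of 3 arrays hybridised with total RNA from human lymphoma cell lines. L428 is a line from classical Hodgkin lymphoma, a tumour that descends from B cells and has lost most of their gene expression. L428-PAX5 is derived from it and makes PAX5, a transcription factor needed for B-cell identity, when mifepristone is given. The group L428+M is L428 given 0.25 nM mifepristone for 5 days, and L428-PAX5+M is L428-PAX5 given the same. In L428+MAT and L428-PAX5+MAT, 2 days of mifepristone were followed by 3 days of 3 µM 5-aza-dC, an inhibitor of DNA methyltransferases, and 640 nM TSA (trichostatin A), which inhibits histone deacetylases, was added for 24 hours. The Burkitt lymphoma lines Raji and Namalwa received none of these agents.

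All 4 groups of L428 origin had mifepristone, which Raji and Namalwa did not, so the effect of the line and that of mifepristone cannot be told apart where a Burkitt line is compared with them. L428-PAX5 without mifepristone is not analysed here, and its medium held 25 mM HEPES, so PAX5, the derived line and its medium cannot be told apart either. 5-aza-dC and TSA were given together and are called the drugs below. In L428-PAX5+MAT the 3 sample titles read L425-PAX5, but the cell line field reads L428-PAX5 and was followed. Nothing in the labels makes the replicates separate cultures, and the spread behind the p-values may therefore be technical. In bulk RNA, fewer cells expressing a gene and less of its RNA per cell cannot be told apart.

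Array medians lay between 6.52 and 6.70 on the log2 scale, and the correlation of replicates over genes was 0.964 to 0.994. PAX5 lay between 12.67 and 12.85 on the 6 L428-PAX5 arrays, between 6.70 and 8.64 on the 6 L428 arrays and between 10.77 and 11.31 in the Burkitt lines. Its groups follow the labels, with replicate 1 of L428+M above the others of its group. All 5 B-cell markers (CD79A, CD79B, PAX5, BLNK, POU2AF1) were higher in Raji and in Namalwa than in L428+M. So were all 5 Burkitt or germinal-centre markers (MME, BCL6, MYC, CD38, TCL1A). All 5 Hodgkin markers (TNFRSF8, FUT4, CCL17, IRF4, FSCN1) were lower, with the FUT4 call lost without L428+M replicate 1 or replicate 3 of the Burkitt line compared. Of all genes 31.2% passed in Raji and 33.9% in Namalwa. Of 6 T and NK cell markers none passed limma's test in either Burkitt line, and at an unadjusted p under 0.05 there were 0 in Raji and 1 in Namalwa.

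Mature B cells carry these proteins around the B-cell receptor and use them to set how strongly it signals. CR2 binds complement fragments on an antigen and, in a complex with CD81, lowers the threshold for activation, while CD22 and CD72 recruit phosphatases that restrain it. MS4A1 is the target of rituximab, CD53 and CD37 are tetraspanins that organise membrane proteins, FCER2 is the low-affinity IgE receptor, CD24 is a small sialylated glycoprotein and CD180 is a Toll-like receptor relative. Loss of such surface antigens is a diagnostic feature of classical Hodgkin lymphoma, in which Hodgkin cells often lack CD20.

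The promoter windows of 4 members are shown because their RNA differed in its pattern over the groups. CR2 was higher in L428-PAX5+M and in L428+MAT than in L428+M. FCER2 was higher with the drugs in L428, and CD22 and CD180 stayed far below the Burkitt lines in every L428 group. RefSeq's table (GRCh38.p14) held windows for 7 of the 9 members, each running from 250 bases before to 50 bases after an annotated start. The windows lie at chr1:207454078-207454377 on the plus strand for CR2, chr19:7702082-7702381 on the minus strand for the first of 2 FCER2 starts, chr19:35328937-35329236 on the plus strand for CD22, and chr5:67196750-67197049 on the minus strand for CD180. They are written 5′ to 3′ along the gene, and capitals mark each CpG, the dinucleotide that DNA methylation modifies.
CR2: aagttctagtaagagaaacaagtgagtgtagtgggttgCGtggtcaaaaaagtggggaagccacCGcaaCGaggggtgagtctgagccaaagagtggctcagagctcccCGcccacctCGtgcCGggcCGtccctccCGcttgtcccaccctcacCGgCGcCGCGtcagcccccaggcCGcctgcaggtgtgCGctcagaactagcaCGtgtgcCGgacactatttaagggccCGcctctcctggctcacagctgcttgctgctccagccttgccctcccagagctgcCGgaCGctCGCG
FCER2: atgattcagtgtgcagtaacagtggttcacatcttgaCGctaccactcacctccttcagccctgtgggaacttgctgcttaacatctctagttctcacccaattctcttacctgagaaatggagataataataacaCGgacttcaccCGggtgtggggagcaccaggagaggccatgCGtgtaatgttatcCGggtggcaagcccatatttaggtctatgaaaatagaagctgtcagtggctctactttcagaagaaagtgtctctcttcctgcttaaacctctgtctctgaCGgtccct
CD22: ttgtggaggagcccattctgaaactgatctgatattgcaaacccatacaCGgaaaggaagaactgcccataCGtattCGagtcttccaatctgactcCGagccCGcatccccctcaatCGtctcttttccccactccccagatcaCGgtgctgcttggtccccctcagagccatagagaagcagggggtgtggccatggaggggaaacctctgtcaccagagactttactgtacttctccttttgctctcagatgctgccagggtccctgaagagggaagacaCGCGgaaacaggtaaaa
CD180: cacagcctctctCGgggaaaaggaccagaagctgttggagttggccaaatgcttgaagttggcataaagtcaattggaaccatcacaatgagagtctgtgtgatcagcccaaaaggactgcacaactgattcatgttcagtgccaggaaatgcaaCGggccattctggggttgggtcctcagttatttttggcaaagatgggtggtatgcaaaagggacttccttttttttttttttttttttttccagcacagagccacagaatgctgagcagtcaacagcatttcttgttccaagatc

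The CR2 window held 21 CpG, the FCER2 window 6, the CD22 window 9 and the CD180 window 2. The median of all 35116 windows of this length was 14, and 39.5% of them had at least as many CpG as CR2, 66.3% as many as FCER2, 58.4% as many as CD22 and 89% as many as CD180. CD72 had 6 CpG, the second FCER2 start 4, the CD53 starts 3 and 4, and the CD24 starts 25, 36 and 21. CpG number differed among the members, any link of it to their levels was not tested, and methylation was not measured here.

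**Figure D1:**
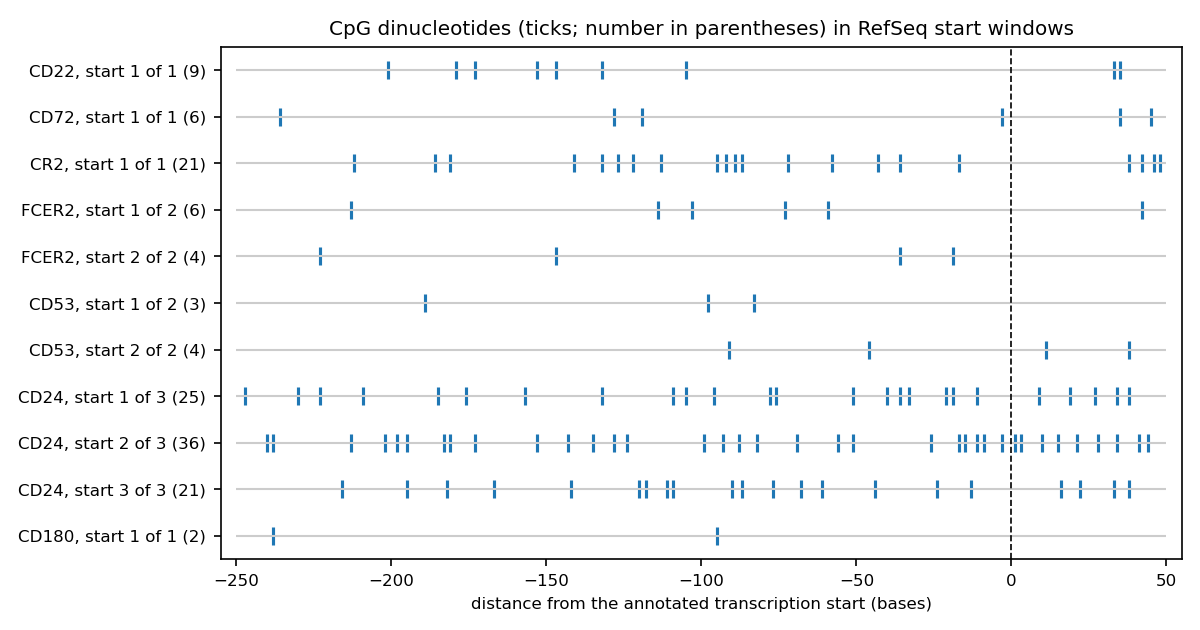
Position of each CpG (tick) in the promoter windows of the members, in bases from the annotated start, with 1 row for each of 11 windows. The CR2 and CD24 windows hold 21 to 36 CpG and the others 2 to 9.

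Letters bound by B-cell or lymphoid factors were searched on both strands of the same windows. The octamer ATGCAAAT, the site of the POU2F factors, is in 1.77% of all windows and was found in the first CD53 window, 46 bases before the start. The letters GAGGAA, a core of ETS family sites, are in 27.9% of all windows and were found in CD72, 190 and 45 bases before the start, and in the second CD53 window, 147 and 76 bases before it. The E-box letters CAGGTG are in 20.6% of all windows and were found in CR2 (66 bases before the start), the first CD53 window (217) and the third CD24 window (249). None of these matches overlapped another, and no site was tested for binding.

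**Figure D2:**
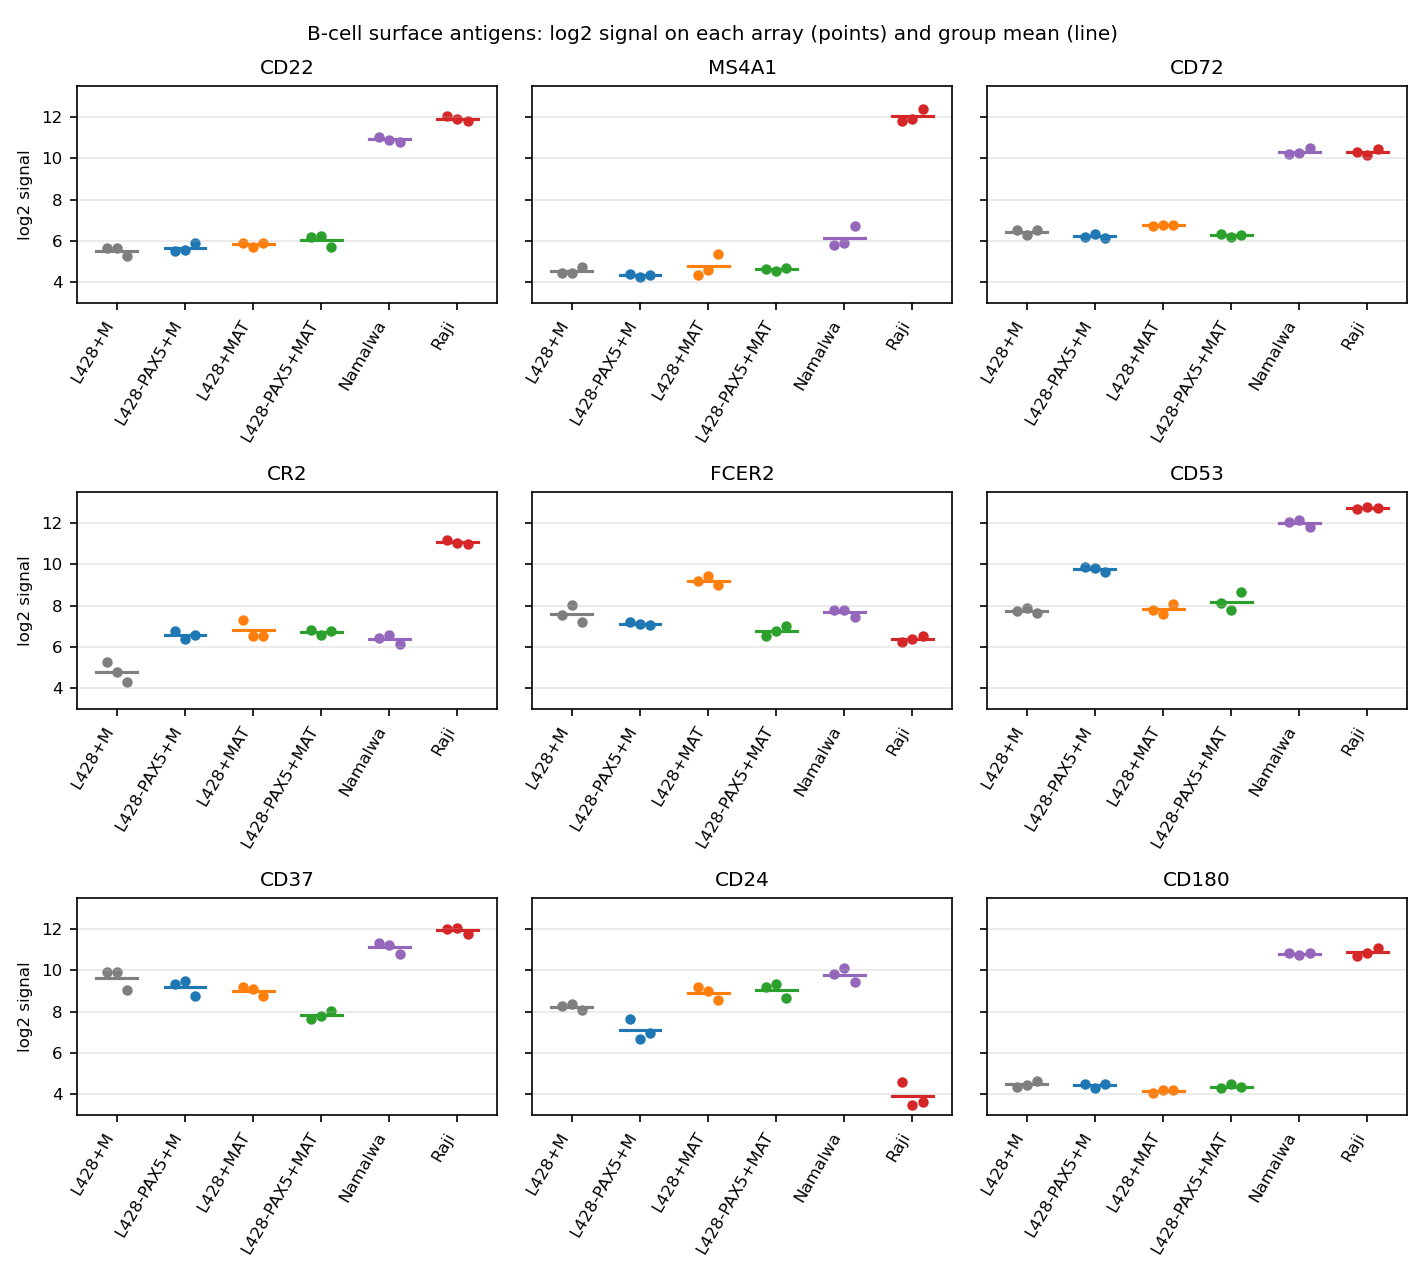
Log2 signal of each member on every array, with 1 panel per gene and 1 column per group; points are arrays and the bar is the group mean. CD22, MS4A1, CD72, CD53, CD37 and CD180 are higher on every Burkitt array than on every L428 array. Among the L428 groups CR2, FCER2, CD53, CD37 and CD24 have differences past the test. Smaller ones pass for CD22 (0.53, L428-PAX5+MAT against L428+M) and CD72 (-0.48, L428-PAX5+MAT against L428+MAT).

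CD22, the inhibitory sialic acid receptor, was at 5.67, 5.64 and 5.25 in L428+M, 5.52, 5.55 and 5.88 in L428-PAX5+M, 5.91, 5.73 and 5.90 in L428+MAT and 6.18, 6.25 and 5.72 in L428-PAX5+MAT. Namalwa had 11.05, 10.91 and 10.80 and Raji 12.03, 11.92 and 11.83. The 12 L428 arrays lay between 5.25 and 6.25, and every Burkitt array lay far above them. CD22 was 84.9-fold higher in Raji than in L428+M (log2 6.41 ± 0.16 SE, n = 3 against 3, limma adjusted p = 5.98e-16) and 42.3-fold higher in Namalwa (5.40 ± 0.16, limma adjusted p = 5.49e-15). Raji was also 2.01-fold above Namalwa (limma adjusted p = 9.42e-05).

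Across the whole set of members, 9 of 9 passed the test between Raji and L428+M, 7 higher and 2 lower, where 31.2% of all genes passed (15.7% higher, 15.6% lower). Between Namalwa and L428+M, 8 were higher and none lower by limma (none at an unadjusted p under 0.05 either), against 33.9% of all genes (18.4% higher, 15.5% lower). The members' median difference was 4.98 in Raji and 1.61 in Namalwa, beside medians of 0.05 and 0.00 over all genes. Both comparisons use the L428+M arrays.

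In L428-PAX5+M, CD22 differed from L428+M by 0.13 (95% confidence interval -0.20 to 0.47), and the drugs added 0.33 in L428 (-0.00 to 0.67, limma adjusted p = 0.345) and 0.40 in L428-PAX5 (0.06 to 0.73, limma adjusted p = 0.0636). None of these passed. The difference of 0.40 passed with the replicate number as a block in the fit, with dim genes left out, without L428-PAX5+M replicate 3 (0.51) and without L428-PAX5+MAT replicate 3 (0.56). In L428-PAX5+MAT CD22 was 1.44-fold above L428+M (0.53 ± 0.16, limma adjusted p = 0.0130). That call was lost when only the compared groups were fitted, without L428+M replicate 3 (0.39) and without L428-PAX5+MAT replicate 1 (0.46) or 2 (0.43). Raji was 58.9-fold and Namalwa 29.3-fold above L428-PAX5+MAT.

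CD72, the semaphorin receptor that also restrains receptor signals, was at 6.55, 6.27 and 6.54 in L428+M, 6.20, 6.35 and 6.16 in L428-PAX5+M, 6.74, 6.78 and 6.75 in L428+MAT and 6.33, 6.20 and 6.31 in L428-PAX5+MAT. Namalwa had 10.20, 10.24 and 10.49 and Raji 10.30, 10.15 and 10.46. The Burkitt lines overlapped each other and lay above every L428 array. CD72 was 14.4-fold higher in Raji (3.85 ± 0.13, limma adjusted p = 2.07e-14) and 14.5-fold higher in Namalwa (3.86 ± 0.13, limma adjusted p = 1.93e-14) than in L428+M. Raji and Namalwa differed by -0.01, with an interval from -0.27 to 0.26.

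Among the L428 groups CD72 moved little. L428-PAX5+MAT was 1.40-fold lower than L428+MAT (-0.48 ± 0.13, limma adjusted p = 0.00636), and the arrays of these groups did not overlap. In that comparison no member was higher by limma (1 at an unadjusted p under 0.05, CD53) and 3 were lower (CD72, FCER2 and CD37), where 32.0% of all genes passed (14.3% higher, 17.7% lower). The difference from the drugs was 0.30 in L428 (0.04 to 0.57, limma adjusted p = 0.244) and 0.04 in L428-PAX5 (-0.22 to 0.31), neither past the test.

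CD180, which pairs with LY86 on the cell surface, was at 4.37, 4.44 and 4.66 in L428+M, 4.52, 4.32 and 4.5 in L428-PAX5+M, 4.04, 4.2 and 4.19 in L428+MAT and 4.28, 4.51 and 4.33 in L428-PAX5+MAT. Namalwa had 10.82, 10.74 and 10.86 and Raji 10.68, 10.85 and 11.10. The Burkitt lines overlapped and all lay at 10.68 or above, while no L428 array exceeded 4.66. CD180 was 83.7-fold higher in Raji (6.39 ± 0.13, limma adjusted p = 5.58e-17) and 79.6-fold higher in Namalwa (6.32 ± 0.13, limma adjusted p = 1.41e-16) than in L428+M. No comparison among the L428 groups passed for CD180, and L428+MAT, the lowest, was -0.35 from L428+M (-0.62 to -0.07, limma adjusted p = 0.179).

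MS4A1, the CD20 antigen, was at 4.44, 4.44 and 4.76 in L428+M, 4.42, 4.24 and 4.36 in L428-PAX5+M, 4.36, 4.61 and 5.38 in L428+MAT and 4.65, 4.56 and 4.71 in L428-PAX5+MAT. Namalwa had 5.78, 5.90 and 6.72 and Raji 11.82, 11.88 and 12.38. Raji stood alone at a high level, Namalwa lay a little above the L428 groups, and replicate 3 of L428+MAT was the highest of the L428 arrays. MS4A1 was 179-fold higher in Raji than in L428+M (7.48 ± 0.25, limma adjusted p = 1.98e-14) and 3.00-fold higher in Namalwa (1.58 ± 0.25, limma adjusted p = 3.38e-05). The L428+M means of MS4A1 (4.55), CD180 (4.49), CR2 (4.78), CD22 (5.52) and CD72 (6.46) lay below the median of all gene values (7.18). So did the Raji means of CD24 (3.91) and FCER2 (6.38). Signal is compressed there, so the folds that use these means may be understated and were not ranked.

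Between the Burkitt lines MS4A1 differed 59.6-fold (5.90 ± 0.25, limma adjusted p = 1.38e-12). In that comparison 5 members were higher in Raji (CD22, MS4A1, CR2, CD53, CD37) and 2 lower (FCER2, CD24), where 19.2% of all genes passed (7.74% higher, 11.5% lower). MS4A1 passed in no comparison among the L428 groups. Its differences there ran from -0.21 (-0.72 to 0.31), for L428-PAX5+M against L428+M, to 0.30 (-0.22 to 0.81), for the drugs in L428-PAX5.

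**Figure D3:**
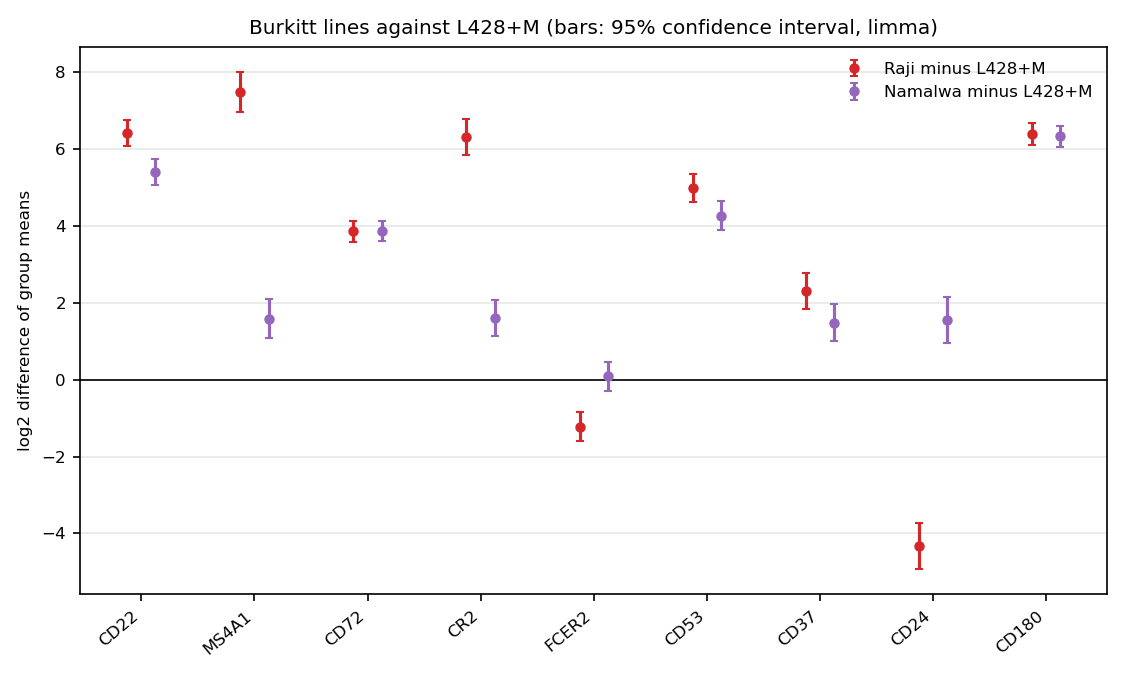
Log2 difference of each Burkitt line from L428+M for the 9 members, as group mean minus group mean; bars are 95% confidence intervals from limma. CD72 and CD180 have nearly equal values in Raji and Namalwa, while MS4A1, CR2 and CD24 lie 4.69 to 5.90 apart.

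CR2, the complement receptor, was at 5.25, 4.79 and 4.30 in L428+M. It was at 6.77, 6.39 and 6.60 in L428-PAX5+M, 7.32, 6.53 and 6.55 in L428+MAT and 6.81, 6.58 and 6.79 in L428-PAX5+MAT. Namalwa had 6.45, 6.59 and 6.13 and Raji 11.20, 11.05 and 10.99. L428+M was the lowest group without overlap, Raji the highest, and the other 4 groups overlapped with their neighbours in order.

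CR2 rose 3.49-fold in L428-PAX5+M over L428+M (1.80 ± 0.22, limma adjusted p = 1.24e-05). It rose 4.05-fold with the drugs in L428 (2.02 ± 0.22, limma adjusted p = 9.66e-06) and was 3.86-fold higher in L428-PAX5+MAT than in L428+M (1.95 ± 0.22, limma adjusted p = 1.51e-06). These 3 comparisons share the L428+M arrays, whose replicate 3 was the lowest of them. In L428-PAX5 the drugs made a difference of 0.14 (-0.32 to 0.61, limma adjusted p = 0.690). The interaction, the drug difference in L428-PAX5 minus that in L428, was -1.87 ± 0.32 (limma adjusted p = 7.00e-04).

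L428-PAX5+MAT differed from Namalwa in CR2 by less than the test could separate (Namalwa minus L428-PAX5+MAT -0.34, interval -0.81 to 0.13, limma adjusted p = 0.239). Raji was 20.4-fold above L428-PAX5+MAT (4.35 ± 0.22, limma adjusted p = 1.01e-11). Against L428-PAX5+MAT, 7 members were higher and 1 lower in Raji, where 46.6% of all genes passed (24.5% higher, 22.1% lower), and 8 were higher in Namalwa, where 45.4% passed (24.1% higher, 21.3% lower). CR2 was the only member that did not pass there against Namalwa.

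FCER2, the IgE receptor that also binds CR2, was at 7.53, 8.03 and 7.23 in L428+M, 7.19, 7.10 and 7.06 in L428-PAX5+M, 9.18, 9.41 and 9.01 in L428+MAT and 6.55, 6.78 and 7.01 in L428-PAX5+MAT. Namalwa had 7.80, 7.80 and 7.47 and Raji 6.22, 6.39 and 6.53. L428+MAT was above all other arrays, the Burkitt lines included, and Raji was below all others. FCER2 was 2.32-fold lower in Raji than in L428+M (-1.22 ± 0.18, limma adjusted p = 2.52e-05), while Namalwa differed from L428+M by 0.09 (-0.29 to 0.47).

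The drugs raised FCER2 3.04-fold in L428 (1.60 ± 0.18, limma adjusted p = 1.36e-05). Together with CR2 it was 1 of 2 members that rose there by limma and none fell, with 4 higher and 2 lower at an unadjusted p under 0.05. In this comparison 4.84% of all genes passed (4.21% higher, 0.635% lower), or 8.64% with the replicate block. In L428-PAX5 the drug difference was -0.34 (-0.72 to 0.04, limma adjusted p = 0.174). The interaction was -1.94 ± 0.26 (limma adjusted p = 9.75e-05), and with the drugs L428-PAX5 was 5.35-fold below L428 (-2.42 ± 0.18, limma adjusted p = 2.26e-08).

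Without the drugs FCER2 was -0.48 ± 0.18 in L428-PAX5+M relative to L428+M, which did not pass (limma adjusted p = 0.0879). It passed with the replicate block, at the same -0.48, and without L428+M replicate 3 (-0.66). L428-PAX5+MAT was 1.76-fold below L428+M (-0.82 ± 0.18, limma adjusted p = 0.00144). Raji was -0.40 from L428-PAX5+MAT (limma adjusted p = 0.0817), a difference that passed without L428-PAX5+MAT replicate 1 (-0.52).

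CD53, a tetraspanin of white blood cells, was at 7.72, 7.89 and 7.62 in L428+M, while L428-PAX5+M had 9.87, 9.84 and 9.63. It was at 7.81, 7.60 and 8.06 in L428+MAT and 8.14, 7.81 and 8.64 in L428-PAX5+MAT, and Namalwa had 12.03, 12.15 and 11.83 and Raji 12.67, 12.76 and 12.74. L428-PAX5+M stood between the other L428 groups and the Burkitt lines and overlapped with neither. CD53 was 31.5-fold higher in Raji (4.98 ± 0.18, limma adjusted p = 5.20e-14) and 19.1-fold higher in Namalwa (4.26 ± 0.18, limma adjusted p = 4.22e-13) than in L428+M, and Raji was 1.65-fold above Namalwa (limma adjusted p = 0.00561).

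In L428-PAX5+M, CD53 rose 4.09-fold over L428+M (2.03 ± 0.18, limma adjusted p = 2.01e-07). Of the members 2 rose there (CR2, CD53) and 1 fell (CD24), where 16.3% of all genes passed (9.72% higher, 6.55% lower). Without L428+M replicate 3 the count was 5, with FCER2 and CD37 added. The drugs lowered CD53 3.00-fold in L428-PAX5 (-1.58 ± 0.18, limma adjusted p = 2.21e-06), while the difference in L428 was 0.08 (-0.29 to 0.45). The interaction was -1.66 ± 0.25 (limma adjusted p = 2.76e-04).

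What remained of CD53 in L428-PAX5+MAT was 0.45 ± 0.18 above L428+M, just short of the test (limma adjusted p = 0.0527). It passed with the replicate number as a block in the fit, with dim genes left out and without L428-PAX5+MAT replicate 2 (0.64). Against L428+MAT the difference was 0.37 (0.00 to 0.74, limma adjusted p = 0.125), which passed without L428-PAX5+MAT replicate 2 (0.56). Raji was 23.0-fold and Namalwa 14.0-fold above L428-PAX5+MAT.

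CD37, the tetraspanin of mature B cells, was at 9.90, 9.94 and 9.07 in L428+M, 9.35, 9.47 and 8.78 in L428-PAX5+M, 9.19, 9.11 and 8.75 in L428+MAT and 7.65, 7.77 and 8.02 in L428-PAX5+MAT. Namalwa had 11.32, 11.23 and 10.80 and Raji 12.02, 12.05 and 11.75. L428-PAX5+MAT was the lowest group and the Burkitt lines the highest, while the other 3 L428 groups overlapped, each with its lowest value in replicate 3. CD37 was 4.94-fold higher in Raji (2.30 ± 0.23, limma adjusted p = 1.15e-07) and 2.79-fold higher in Namalwa (1.48 ± 0.23, limma adjusted p = 3.03e-05) than in L428+M. Raji was 1.77-fold above Namalwa (0.82, limma adjusted p = 0.0131), a call lost without Namalwa replicate 3 (0.67) or Raji replicate 2 (0.77).

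The drugs lowered CD37 2.61-fold in L428-PAX5 (-1.38 ± 0.23, limma adjusted p = 1.18e-04). There 1 member rose (CD24) and 2 fell (CD53, CD37), where 33.7% of all genes passed (14.2% higher, 19.4% lower). In L428 the drug difference was -0.62 ± 0.23 (limma adjusted p = 0.162), which passed with the replicate block and without L428+M replicate 3 (-0.90). The interaction of -0.77 ± 0.32 (limma adjusted p = 0.119) passed with the block and without L428-PAX5+M replicate 3 (-0.98). L428-PAX5+M was -0.44 from L428+M (limma adjusted p = 0.234), which passed without L428+M replicate 3 (-0.72).

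In L428-PAX5+MAT CD37 was 3.54-fold below L428+M (-1.82 ± 0.23, limma adjusted p = 3.97e-06). In this comparison 3 members were higher (CD22, CR2, CD24) and 2 lower (FCER2, CD37), where 37.5% of all genes passed (17.9% higher, 19.6% lower). The count fell from 5 to 3 without L428+M replicate 3 or without L428-PAX5+MAT replicate 1. CD37 thus lay farther from the Burkitt lines in L428-PAX5+MAT than in L428+M: Raji was 17.5-fold and Namalwa 9.87-fold above L428-PAX5+MAT.

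CD24 was at 8.25, 8.38 and 8.09 in L428+M, 7.62, 6.69 and 6.98 in L428-PAX5+M, 9.19, 9.0 and 8.54 in L428+MAT and 9.20, 9.34 and 8.64 in L428-PAX5+MAT. Namalwa had 9.82, 10.10 and 9.44 and Raji 4.60, 3.50 and 3.64. Namalwa was the highest group and Raji the lowest, with every L428 array between them. RefSeq lists 5 pseudogenes of CD24 with which its probe set may share signal, so its values are uncertain in that respect.

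CD24 was 20.0-fold lower in Raji than in L428+M (-4.32 ± 0.28, limma adjusted p = 3.25e-10), 2.93-fold higher in Namalwa (1.55 ± 0.28, limma adjusted p = 2.09e-04), and 58.6-fold lower in Raji than in Namalwa (-5.87 ± 0.28, limma adjusted p = 1.06e-11). It fell 2.20-fold in L428-PAX5+M (-1.14 ± 0.28, limma adjusted p = 0.00827), a call lost without L428-PAX5+M replicate 2 (-0.94). In L428-PAX5 the drugs raised it 3.90-fold (1.96 ± 0.28, limma adjusted p = 3.51e-05), while in L428 the difference was 0.67 ± 0.28 (limma adjusted p = 0.251).

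The interaction for CD24 was 1.29 ± 0.40 (limma adjusted p = 0.0345). It was lost in 8 of the 12 fits that each left out an array of these groups: replicate 1 (1.29) or 2 (1.22) of L428+M, replicate 2 (1.09) or 3 (1.23) of L428-PAX5+M, replicate 2 (1.33) or 3 (1.11) of L428+MAT, and replicate 1 (1.22) or 2 (1.15) of L428-PAX5+MAT. With CD24 higher and CR2, FCER2 and CD53 lower, 4 members had an interaction past the test, where 16.2% of all genes did (5.64% higher, 10.6% lower), or 25.7% with the replicate block. L428-PAX5+MAT was 1.77-fold above L428+M in CD24 (0.82, limma adjusted p = 0.0285), lost without L428+M replicate 1 (0.83) or 3 (0.75) or L428-PAX5+MAT replicate 1 (0.75) or 2 (0.68). Namalwa was 1.65-fold above L428-PAX5+MAT (0.73, limma adjusted p = 0.0441), lost with quantile scaling (0.54) and without Namalwa replicate 1 (0.71) or 2 (0.57) or L428-PAX5+MAT replicate 1 (0.80) or 3 (0.52).

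**Figure D4:**
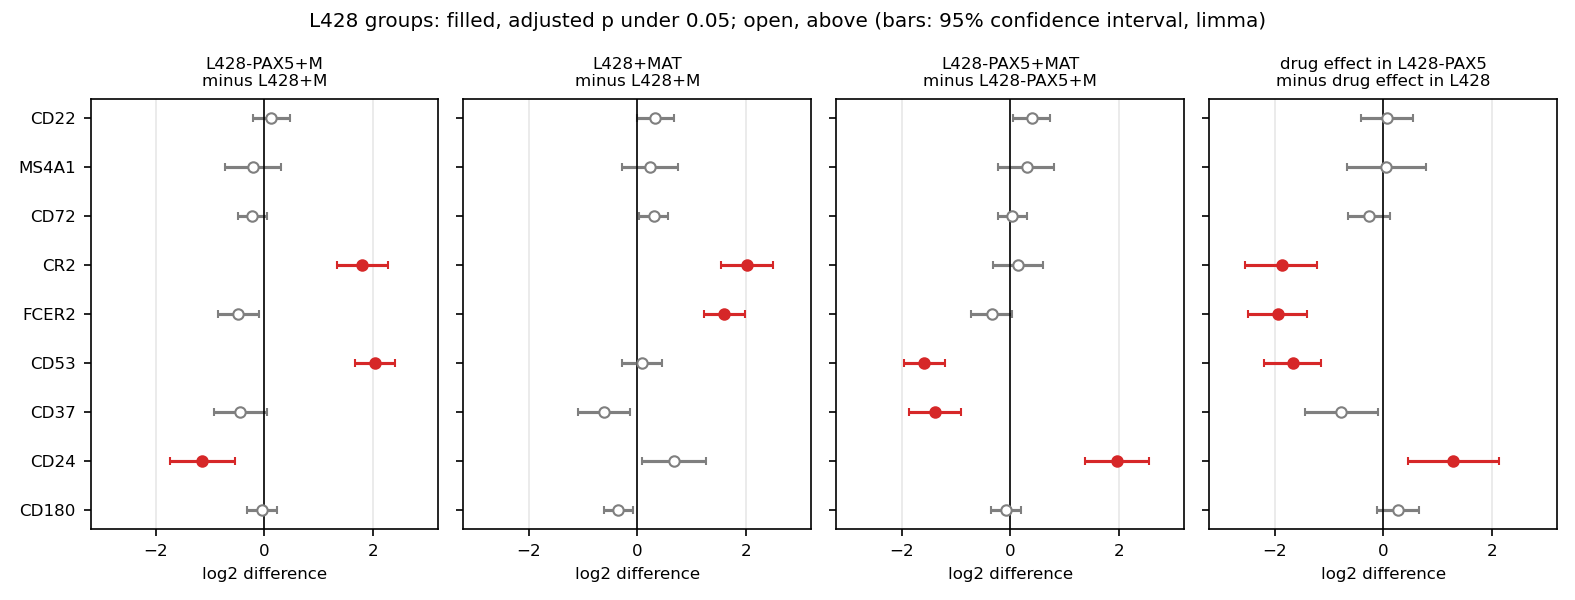
Log2 differences among the 4 L428 groups for the 9 members, as group mean minus group mean; bars are 95% confidence intervals from limma. CR2 is near 2 for L428-PAX5+M minus L428+M and for the drugs in L428 but near 0 for the drugs in L428-PAX5. CD53 is above 0 for L428-PAX5+M minus L428+M and below 0 for the drugs in L428-PAX5. FCER2 moves up with the drugs in L428.

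The members also differed in which other genes varied most like them over the 18 arrays (Pearson correlation of log2 signal, as a description; arrays of a group share their line and treatment). CD22 was nearest to BTK, a kinase of the B-cell receptor, at 0.998 and to WDFY4 at 0.996. CD180 was nearest to CYTIP and JCHAIN, both at 0.997, and CD72 to CCDC69 (0.994) and ARHGDIB (0.993). MS4A1 was nearest to ZNF860 (0.994) and OSBPL10 (0.99), and CD53 to CHAMP1 (0.988) and GPLD1 (0.987). CD37 was nearest to WAS and BDH1, both at 0.974.

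For the other members the nearest genes were as follows. CR2 was nearest to GSAP (0.96) and to CXCR5, the follicle-homing chemokine receptor (0.953). FCER2 was nearest to IRF9 (0.932), a factor of interferon signalling, and EPSTI1 (0.909), and CD24 to GABARAPL1 (0.97) and ELAPOR2 (0.965). Between members, CD22, CD72 and CD180 correlated with one another at 0.984 to 0.991. CD24 correlated with MS4A1 at -0.805, and FCER2 with the others at values from -0.492, for MS4A1, to 0.559, for CD24.

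The partners, ligands and effectors of the members were followed as a list, of which 16 genes are described here. In Raji 11 were higher and 2 lower than in L428+M, with a median difference of 1.07, and in Namalwa 12 were higher and 1 lower, with a median of 1.53. These are 81.2% of the list in each line, beside 31.2% and 33.9% of all genes. The receptor chains CD79A (6.17 in Raji, 5.80 in Namalwa) and CD79B (4.59 and 3.66) were higher, and SYK, the kinase that they activate, was 4.0 and 4.51 higher. LY86, the partner of CD180, was 3.99 and 3.06 higher, and ST6GAL1, which makes the sialic acid ligand of CD22, 3.14 and 2.93. The 2 lower genes in Raji were IFITM1 (-4.76), an interferon-induced membrane protein, and PTPN6 (-0.68), the phosphatase recruited by CD22 and CD72. PTPN6 no longer passed without L428+M replicate 1 (-0.50) or 2 (-0.58) or Raji replicate 1 (-0.62) or 2 (-0.64).

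**Figure D5:**
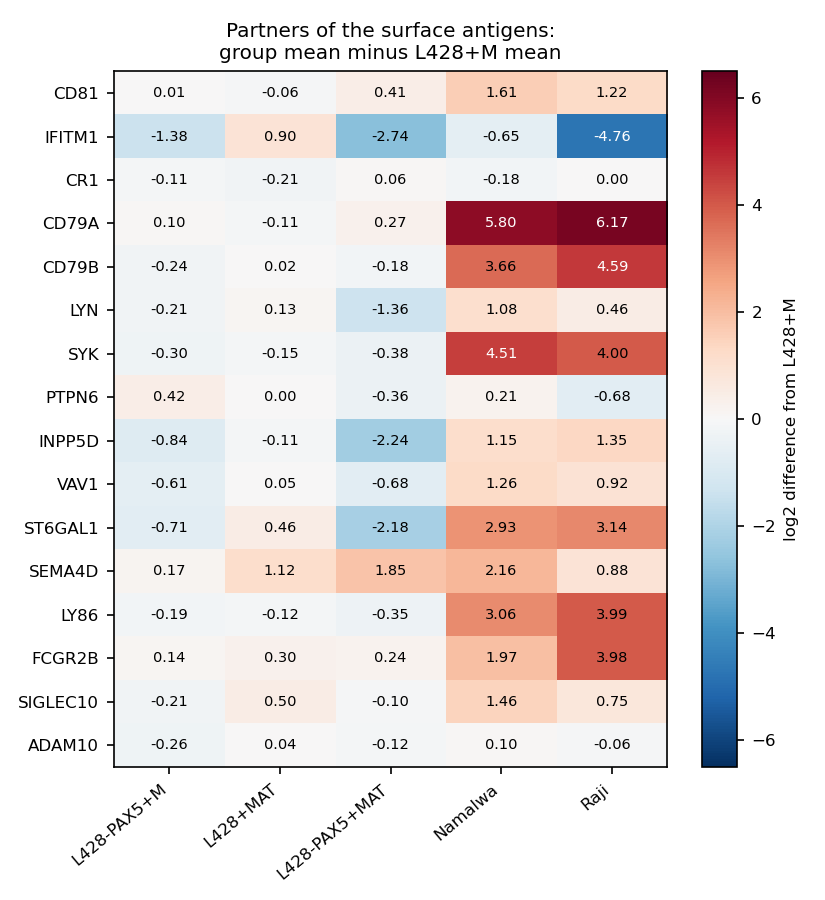
Log2 difference of each group from L428+M for 16 partners, ligands and effectors of the members; red is higher and blue lower, and each cell gives the value. CD79A, CD79B, SYK, LY86 and ST6GAL1 are 2.93 to 6.17 higher in the Burkitt lines and lie between -2.18 and 0.46 in the L428 groups.

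In L428-PAX5+M none of the 16 partners was higher by limma (0 at an unadjusted p under 0.05) and 3 were lower: IFITM1 (-1.38), INPP5D (-0.84), the lipid phosphatase of inhibitory signals, and VAV1 (-0.61), an exchange factor in receptor signalling. These calls are 18.8% of the list, near the 16.3% of all genes. VAV1 no longer passed without L428+M replicate 1 (-0.44) or 2 (-0.63) or L428-PAX5+M replicate 2 (-0.48) or 3 (-0.56). In L428 the drugs raised 3 and lowered none by limma (0 lower at an unadjusted p under 0.05): SEMA4D (1.12), the ligand of CD72, IFITM1 (0.90) and SIGLEC10 (0.50), an inhibitory receptor. These calls are 18.8% of the list, beside 4.84% of all genes. SEMA4D lost its call when all its probe sets were averaged (0.53), and SIGLEC10 lost its call under both other scalings (0.45 and 0.46) and without any 1 of 5 arrays (all but L428+M replicate 3). In L428-PAX5 the drugs raised 1, SEMA4D (1.68), and lowered 5: ST6GAL1 (-1.47), INPP5D (-1.40), IFITM1 (-1.35), LYN (-1.15), the kinase that phosphorylates CD22, and PTPN6 (-0.78), which was lost without L428-PAX5+M replicate 1 (-0.63). These calls are 37.5% of the list, near the 33.7% of all genes. CD81 (0.40) also passed as higher with the replicate block and without L428-PAX5+MAT replicate 3 (0.75).

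In L428-PAX5+MAT 1 partner was higher than in L428+M and 6 were lower, with a median of -0.26 beside -0.06 over all genes. These calls are 43.8% of the list, near the 37.5% of all genes. Without L428-PAX5+MAT replicate 3 the counts were 2 and 4, with CD81 (0.76) gained and SYK (-0.39) and VAV1 (-0.54) lost. INPP5D differed from L428+M by -2.24, ST6GAL1 by -2.18 and LYN by -1.36, while CD79A (0.27) and CD79B (-0.18) did not pass. The interaction was below 0 and past the test for 4 partners (IFITM1, ST6GAL1, INPP5D, LYN) and above 0 for none by limma (0 at an unadjusted p under 0.05), or for SEMA4D (0.86) without L428-PAX5+MAT replicate 3. The calls of the main fit are 25.0% of the list, beside 16.2% of all genes.

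Of 31 other surface molecules of the B lineage 30 were measured. In Raji 17 were higher and 5 lower than in L428+M (median 1.06), and in Namalwa 15 were higher and 7 lower (median 0.35). That is 73.3% of the list in each line, beside 31.2% and 33.9% of all genes. In L428-PAX5+M 3 were higher and 3 lower, with CD69 (1.87), an early activation antigen, and CXCR5 (1.67) the largest rises and CD200 (-2.87) and CD86 (-1.34) the largest falls. These calls are 20.0% of the list, near the 16.3% of all genes. The drugs in L428 raised 4 and lowered none by limma (8 and 0 at an unadjusted p under 0.05), or 13.3% of the list beside 4.84% of all genes. The rises were led by CD38 (1.86) and CD52 (1.23). Leaving out L428+M replicate 2 or L428+MAT replicate 1 gave 2, when CD40 and CD69 lost their calls, and the replicate block gave 7. In L428-PAX5 the drugs raised 1, CD69 (1.16), and lowered 5, led by CD80 (-1.60) and CD86 (-1.36), which are costimulatory ligands. That is 20.0% of the list, below the 33.7% of all genes. The count that rose was 2 without L428-PAX5+M replicate 1 or with dim genes left out, and 3 with quantile scaling or the replicate block.

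Of 37 relatives of the members by family 31 were measured, and some of them are also on the other lists. In Raji 7 were higher and 3 lower (median 0.17), and in Namalwa 7 higher and 5 lower (median 0.05). These are 32.3% and 38.7% of the list, near the 31.2% and 33.9% of all genes. TLR6, a relative of CD180, was higher (2.49 and 1.93), as was the tetraspanin TSPAN14 (3.25 and 1.74), while TSPAN33 (-2.74 and -4.18) and CD63 (-2.72 and -2.21) were lower. The tetraspanin CD9 lay between 8.17 and 9.29 in Namalwa. In Raji (5.92 to 6.40) it overlapped L428+M (5.70 to 6.15). In L428-PAX5+M 2 rose, TLR6 (1.12) and CD63 (0.92), and 2 fell, CLEC2D (-3.47) and TLR2 (-1.01). These calls are 12.9% of the list, near the 16.3% of all genes. The CD63 call was lost without L428-PAX5+M replicate 1 (0.71) or L428+M replicate 3 (0.77). In L428 the drugs raised 2, MS4A15 (0.59) and SIGLEC10, a count that was 0 or 1 without any of the 6 arrays of these groups and 3 with the replicate block. The calls of the main fit are 6.45% of the list, near the 4.84% of all genes. In L428-PAX5 the drugs lowered 5, led by CD63 (-1.65), and raised none by limma (2 at an unadjusted p under 0.05), or 2 with the replicate block or without L428-PAX5+MAT replicate 3. There the calls of the main fit are 16.1% of the list, beside 33.7% of all genes.

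Cell type markers also moved among the L428 groups. Of 6 myeloid markers CSF1R rose in L428-PAX5+M (2.69), and CSF1R (3.39), CD68 (0.92) and CD14 (0.43) were higher in L428-PAX5+MAT than in L428+M, the last lost without 4 of the 6 arrays in turn. The mean of these 6 markers was 5.93 to 6.02 on the L428+M arrays, 6.39 to 6.45 in L428-PAX5+M, 6.18 to 6.23 in L428+MAT and 6.60 to 7.02 in L428-PAX5+MAT. Of 6 fibroblast or epithelial markers COL1A1 (0.64) and KRT18 (1.25, lost without L428+M replicate 1) were higher in L428-PAX5+MAT than in L428+M, and of 6 T and NK cell markers NKG7 was lower (-0.86). These calls are 33.3% and 16.7% of the lists, neither above the 37.5% of all genes. The epithelial marker CDH1 rose with the drugs in L428 (1.38), where CR2 and FCER2 rose, and was lower in L428-PAX5+MAT than in L428+MAT (-1.15). In these comparisons 4.84% and 32.0% of all genes passed. EPCAM fell in L428-PAX5+M relative to L428+M (-0.57) but no longer passed without replicate 2 of L428+M (-0.55) or replicate 2 (-0.49) or 3 (-0.48) of L428-PAX5+M, with quantile scaling (-0.52) or with its probe sets averaged (-0.27). The mean of these 6 markers was 6.55 to 6.78 in L428+M, 6.45 to 6.70 in L428-PAX5+M, 6.82 to 7.06 in L428+MAT and 6.94 to 7.05 in L428-PAX5+MAT. Of the 5 Hodgkin markers 3 fell with the drugs in L428-PAX5, namely CCL17 (-1.78), TNFRSF8 (-1.23) and IRF4 (-0.67), where 33.7% of all genes passed. FUT4 (0.04) and FSCN1 (-0.08) did not pass. In L428-PAX5+M CCL17 was higher than in L428+M (0.72) and TNFRSF8 lower (-0.67), where 16.3% of all genes passed. In L428-PAX5+MAT TNFRSF8 (-1.90), CCL17 (-1.05) and IRF4 (-0.52) were lower than in L428+M, where 37.5% of all genes passed. The mean of all 5 was 10.35 to 10.82 in L428+M and 10.29 to 10.65 in L428-PAX5+M. With the drugs it was 10.42 to 10.83 in L428+MAT and 9.65 to 9.89 in L428-PAX5+MAT. Of the 5 B-cell markers only PAX5 passed in L428-PAX5+M against L428+M, and none passed with the drugs in either line. Of the 5 Burkitt or germinal-centre markers CD38 (1.29) and MYC (0.48) were higher in L428-PAX5+M and BCL6 (-1.99) and MME (-0.69) lower. These calls are 80.0% of that list, beside 16.3% of all genes. With the drugs in L428-PAX5 BCL6 rose (1.90) and CD38 (-0.96) and MYC (-0.86) fell. The part of all these genes in the members' differences was not tested.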

How the data were processed

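The deposited table holds log2 expression values of 33297 probe sets on 18 Affymetrix arrays; per the submitters' processing notes, the authors used RMA and Partek, whose versions are not given in the sources used here. RMA compresses signal near the background, so differences of dim genes are understated, and no detection calls were used. The platform annotation gives 19460 probe sets exactly 1 symbol, 1754 several, and leaves 12083 unnamed. The brightest single-symbol probe set on average was kept for each of 18417 genes. Every member has 1 probe set. The array's build is not given, so the RefSeq table (GRCh38.p14) served for names and promoter windows only.

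Groups were compared with limma 3.58.1 (lmFit and eBayes, R 4.3.3), with 1 mean per group over 18 arrays (residual degrees of freedom 12, prior 6.1). Two-sided p-values were adjusted by Benjamini-Hochberg over 18417 genes and called below 0.05; the script was tested on simulated data. SE is limma's standard error, and a fold is 2 to the power of the log2 difference. Tables and plots used Python 3.11.15, pandas 2.3.3, numpy 2.4.6 and matplotlib 3.10.9. The number of arrays limits precision.

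The members and lists were chosen with earlier results of these data known. Named are all members, PAX5, the 2 genes most correlated with each member, any partner, and up to 2 rising and 2 falling genes of each other list per comparison; markers of other cell types that passed, and examples beyond these, were named after their values were seen. Alternatives were array medians subtracted, quantile scaling, the mean of all probe sets of a gene, dim genes left out, only the groups compared, a replicate block and leaving out each array. Same-numbered arrays deviated from their group means together (correlation across genes above 0.1) in 38 of 45 pairs, range -0.014 to 0.655. All pairs among the 4 L428 groups, between Raji and Namalwa and between Raji and L428-PAX5+MAT passed, so there the numbers may pair the samples. The labels do not say what a number marks. The main fit, which gave every p-value not tied to an alternative, ignored the number. The replicate block was used only as an alternative.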

Additional observations from a re-analysis of the deposited data

Results flagged for a closer look

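In 4 members the drug difference in L428-PAX5 departed from that in L428 by a test of the difference itself (limma interaction, in log2 units). Of all genes 16.2% passed this test, or 25.7% with the replicate block. The CD24 call was lost in 8 of the fits that each left out an array. CR2 had an interaction of -1.87, FCER2 of -1.94, CD53 of -1.66 and CD24 of 1.29. For CR2 the drug difference was 2.02 in L428 and 0.14 in L428-PAX5, and for FCER2 it was 1.60 and -0.34. For CD53 it was 0.08 and -1.58, and for CD24 0.67 and 1.96.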

How the results depend on the processing

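Of 1341 values of single members under another setting 24 lost a call, 16 gained one and 1301 stayed on their side of the threshold. The sign changed in 0 values called in either fit and in 21 that were called in neither. The number of members called was 3 for L428-PAX5+M against L428+M and ranged from 2 to 5 when single arrays were left out. For L428-PAX5+MAT against L428+M it was 5 and ranged from 3 to 5, with 3 without L428+M replicate 3 or L428-PAX5+MAT replicate 1. For the drugs in L428, the count over all genes moved from 892 to 593 with only the compared groups and to 1592 with the replicate block. For the interaction it moved from 2990 to 4730 with the replicate block. The block changed the 5 member calls given above and no other. Subtracting array medians moved the median of all genes from 0.05 to 0.16 in Raji against L428+M and from 0.09 to 0.24 in Raji against L428-PAX5+MAT. The share of calls that were higher moved with it from 50.2% to 60.7% and from 52.6% to 64.7%, and in Raji against Namalwa from 40.2% to 53.4%, while quantile scaling moved that of the interaction from 34.7% to 48.7%. With 3 arrays a group and no detection calls, small differences of dim genes such as MS4A1 and CD180 in L428 were not resolvable.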
